A study of Mus musculus with 12 samples.

Results

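The COUP-TF and Tlx genes form a small branch of the nuclear receptor family, and 4 of them were followed here: Nr2f1 (COUP-TFI), Nr2f2 (COUP-TFII), Nr2f6 (EAR2) and Nr2e1 (Tlx). They were taken by name out of 21951 protein-coding genes, and every H3K4me3 peak that shared at least 1 bp with the 5 kb on either side of any of their annotated transcription start sites (TSSs) was collected. H3K4me3 was profiled by CUT&Tag in wild-type C57BL/6J mouse embryos, in the medial (MGE), lateral (LGE) and caudal (CGE) ganglionic eminences and in cortex (CTX). The age in the study's text is E12.5, and the protocol in the labels names E12.5 and E14.5 without saying which tissue each refers to. Each region had 2 replicates, in 12 libraries altogether (4 of CGE, 3 each of MGE and CTX, 2 of LGE), and tissue of several embryos was pooled by region. The authors merged the replicates of a region before calling peaks, so each region is 1 list, no value below has a replicate error, and no difference between regions was tested.

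Nuclear receptors are transcription factors that bind DNA through zinc fingers, many of them under the control of a hormone or metabolite. The COUP-TFs and Tlx are orphan receptors, with no established natural hormone, and act largely as repressors. In the forebrain Nr2f2 marks the CGE and interneurons born there, Nr2f1 patterns cortical areas along the rostrocaudal axis and is also active in the eminences, and Nr2e1 keeps neural progenitors dividing. Nr2f6 is best known from the locus coeruleus and from T cells. H3K4me3, trimethylated lysine 4 of histone H3, lies at the promoters of active and poised genes, and unusually broad domains of it are often found at genes that define a cell's identity.

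The 4 promoters differ in CpG content and in whether any peak reached them. Promoters are RefSeq entries on GRCm38.p6, from 250 bases before to 50 bases after the start, and all 4 genes had an entry. They are shown 5′ to 3′ on the transcribed strand, with every CpG in capitals. The first Nr2f1 entry (chr13:78198824-78199123) and the Nr2f2 entry (chr7:70366697-70366996) had no base under a peak in any list, whereas the Nr2f6 (chr8:71381903-71382202) and Nr2e1 (chr10:42583541-42583840) entries lay under peaks over all 300 bases in all 4 lists.
Nr2f1: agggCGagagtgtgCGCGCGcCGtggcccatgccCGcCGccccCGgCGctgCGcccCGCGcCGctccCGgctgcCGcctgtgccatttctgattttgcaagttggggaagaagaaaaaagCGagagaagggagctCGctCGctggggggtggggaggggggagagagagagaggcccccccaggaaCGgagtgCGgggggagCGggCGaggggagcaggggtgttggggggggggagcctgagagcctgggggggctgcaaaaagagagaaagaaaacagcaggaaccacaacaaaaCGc
Nr2f2: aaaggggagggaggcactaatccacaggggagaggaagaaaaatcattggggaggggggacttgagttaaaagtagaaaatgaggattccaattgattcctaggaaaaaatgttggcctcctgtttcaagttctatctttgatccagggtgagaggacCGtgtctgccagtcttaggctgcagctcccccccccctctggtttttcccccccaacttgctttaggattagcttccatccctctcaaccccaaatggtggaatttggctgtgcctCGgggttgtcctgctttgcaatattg
Nr2f6: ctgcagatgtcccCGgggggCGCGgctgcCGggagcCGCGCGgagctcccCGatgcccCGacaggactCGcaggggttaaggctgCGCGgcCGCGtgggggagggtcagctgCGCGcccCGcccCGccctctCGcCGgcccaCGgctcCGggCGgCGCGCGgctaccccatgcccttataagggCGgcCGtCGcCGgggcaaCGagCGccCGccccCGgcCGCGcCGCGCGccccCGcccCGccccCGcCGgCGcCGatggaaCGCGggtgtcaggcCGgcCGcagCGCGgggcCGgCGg
Nr2e1: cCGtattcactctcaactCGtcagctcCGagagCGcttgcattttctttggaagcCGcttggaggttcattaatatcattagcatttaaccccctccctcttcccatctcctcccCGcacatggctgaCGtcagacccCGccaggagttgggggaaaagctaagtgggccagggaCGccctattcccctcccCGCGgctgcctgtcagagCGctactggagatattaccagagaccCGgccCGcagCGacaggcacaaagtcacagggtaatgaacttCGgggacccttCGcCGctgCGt
All 4 stretches are on the minus strand. The Nr2f6 promoter held 53 CpGs at 82.7% GC, more CpGs than 99.5% of the 32851 promoters in the RefSeq table. The Nr2f1 promoter held 23 CpGs at 68% GC and the Nr2e1 promoter 19 at 58% GC, against a median of 7 over the table. The Nr2f2 entry held only 2, but it sits at the gene's annotated 5′ end, the farthest upstream of its TSSs. The next Nr2f2 TSS lies 6142 bp downstream. The LGE peak that held 4 of the gene's TSSs had 343 CpGs, or 7.65 per 100 bp, so this entry does not stand for every start of the gene. The second Nr2f1 entry (chr13:78196400-78196699), within the gene, held 4 CpGs and had no covered base either. AGGTCA, the core site that many nuclear receptors bind, was in none of the 5 RefSeq entries of the members on either strand, and in 16.3% of all promoters. AAGTCA, the core site of Tlx, was in the Nr2e1 entry alone of the 5, and in 15.1% of all promoters.

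The lists differed in ways that touch each result below. The MGE, LGE, CGE and CTX lists held 25339, 17284, 17752 and 21442 peaks. In that order, median peak width was 563, 1168, 1240 and 701 bp, and the median −log10 q, the peak caller's measure of confidence, was 5.19, 40.0, 79.3 and 8.57. Of the 14900 genes with a peak within 5 kb in any list, 72.7% were most covered in CGE, so a gene most covered in CGE is the usual case. For this reason each gene was also placed within its own list, by the percentile of its covered bases among all protein-coding genes of that list (ties at their midpoint). The MGE, LGE and cortex labels were set against 3 marker genes each, and CGE had no marker set of its own. The MGE markers Nkx2-1 and Lhx8 had no peak in CTX, and Lhx6 had 451 covered bases there. The MGE and LGE markers were all most covered in CGE, so their covered bases did not tell the MGE or LGE list from that of CGE. The cortex markers Neurod2, Neurod6 and Bhlhe22 had 242 to 1894 covered bases in CTX, more in LGE (1132 to 2323) and CGE (584 to 2552), and fewer in MGE (138 to 434), apart from Neurod6, which had 328 in MGE and 242 in CTX, so the LGE and CGE lists carried both sets of marks. None of the 3 microglial markers had a peak in any list; Cdh5, Hbb-bt and Col3a1, markers of endothelial, erythroid and mesenchymal cells, had none either. By the sequencing depths that the paper reports for H3K4me3, both CGE replicates were deeper than any replicate of LGE or MGE. The part of depth, peak width and tissue mixture in the results was not tested.

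All 4 genes were marked in all 4 regions, as were 61.3% of protein-coding genes. Covered bases at Nr2f1, the bases under peaks within 5 kb of its TSSs, were highest in CGE at 8125, then 6753 in LGE, 4263 in MGE and 3234 in CTX. At Nr2f2 they were 12460, 5401, 3700 and 2208 in the same order. Nr2f1 thus had the same order of regions as Nr2f2, with a shallower slope. The whole lists also ran in this order by total covered bases, at 23.5, 21.6, 17.1 and 16.7 Mb. The shared order alone therefore does not set these genes apart, and no share of genes with it is given. Both genes kept it per Mb covered by the list. The values were 346, 313, 249 and 194 bases for Nr2f1 and 531, 250, 216 and 132 for Nr2f2. Nr2f6 had 3689, 2870, 2054 and 2631 covered bases, with CTX above MGE. Nr2e1 had 5725, 5887, 3242 and 3863, with LGE just above CGE. So 3 of the 4 genes were most covered in CGE and 1 in LGE, where the background was 72.7% and 16.3% of genes.

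Read against all genes, Nr2f2 and Nr2f1 stood above Nr2e1 and Nr2f6 in the ratios to CTX, but the other ratios grouped the genes differently. Covered bases in CGE over those in CTX came to 5.64 for Nr2f2 and 2.51 for Nr2f1, at the 98.8th and 93.2nd percentiles of 13685 genes covered in both lists, whose median ratio was 1.36. The ratio was 1.48 for Nr2e1 and 1.40 for Nr2f6, at the 64.2nd and 55.9th percentiles. In MGE over CTX, Nr2f2 at 1.68 and Nr2f1 at 1.32 stood at the 96.3rd and 90.9th percentiles, above a median of 0.98, while Nr2e1 at 0.84 and Nr2f6 at 0.78 stood at the 18.8th and 12.98th. These ratios share lists, so they are not independent of each other. In LGE over CTX the percentiles were 94.8 for Nr2f2, 91.9 for Nr2f1, 76.2 for Nr2e1 and 20.8 for Nr2f6. In CGE over LGE, Nr2f2 was highest at 2.31 and the 99.2nd percentile. Nr2f6 followed at 1.29 and the 91.4th, Nr2f1 at 1.20 and the 86.2nd and Nr2e1 at 0.97 and the 10.6th, around a median of 1.05. In CGE over MGE, Nr2f2 stood at the 96.8th percentile and the other 3 close together, Nr2f1 at 84.4, Nr2f6 at 80.3 and Nr2e1 at 78.8. In LGE over MGE, Nr2e1 was highest at the 86.7th percentile, above Nr2f1 (76.7), Nr2f2 (67.7) and Nr2f6 (61.5).

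**Figure D1:**
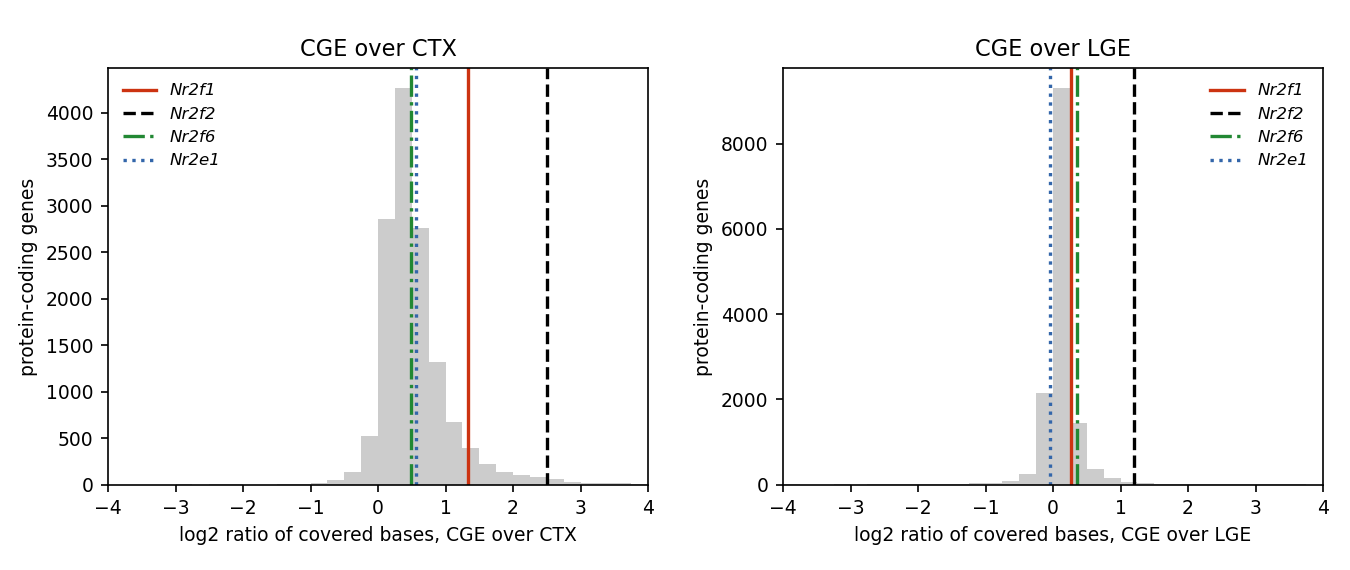
Histograms of the log2 ratio of covered bases (horizontal axis) over protein-coding genes (vertical axis, number of genes), CGE over CTX on the left and CGE over LGE on the right, with a vertical line for each receptor gene. Nr2f2 lies in the right tail of both (ratios 5.64 and 2.31), Nr2f1 in the right tail of the left panel (2.51), and Nr2f6 and Nr2e1 near the middle of the left panel (1.40 and 1.48).

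The percentile within each list changed the leading region for Nr2f6. In MGE, LGE, CGE and CTX, Nr2f1 stood at 99.78, 99.91, 99.92 and 98.98, which are rank 17 in CGE and rank 225 in CTX. Nr2f2 stood at 99.56, 99.69, 99.99 and 95.20. Nr2e1 stood at 99.12, 99.81, 99.63 and 99.53, with its highest place, rank 43, in LGE. Nr2f6 stood at 94.27, 95.37, 97.49 and 97.58, and its CGE and CTX places (ranks 552 and 531) were close enough that the order turned when the peak at the neighbouring gene Ocel1 was left out. Of the 4 genes, 2 (Nr2f1 and Nr2f2) had their highest percentile in CGE, against 17.2% of genes, 1 (Nr2e1) in LGE, against 18.5%, and 1 (Nr2f6) in CTX, against 31.4%. For Nr2f1 the lead of CGE over LGE was rank 17 against rank 20, and LGE led with windows of 2 kb, with the 5′ end of the gene only, and with protein-coding transcripts only. Nr2e1 kept between rank 43 and rank 193 over the 4 lists. Summed bases favour genes with more TSSs, and the members had a median of 6 against 3 over all genes. By the share of its windows covered, Nr2e1 stood at 94.5, 98.5, 97.5 and 96.7 in MGE, LGE, CGE and CTX, Nr2f1 at 99.2, 99.7, 99.8 and 96.8, and Nr2f2 at 97.6, 98.4, 99.97 and 85.7.

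**Figure D2:**
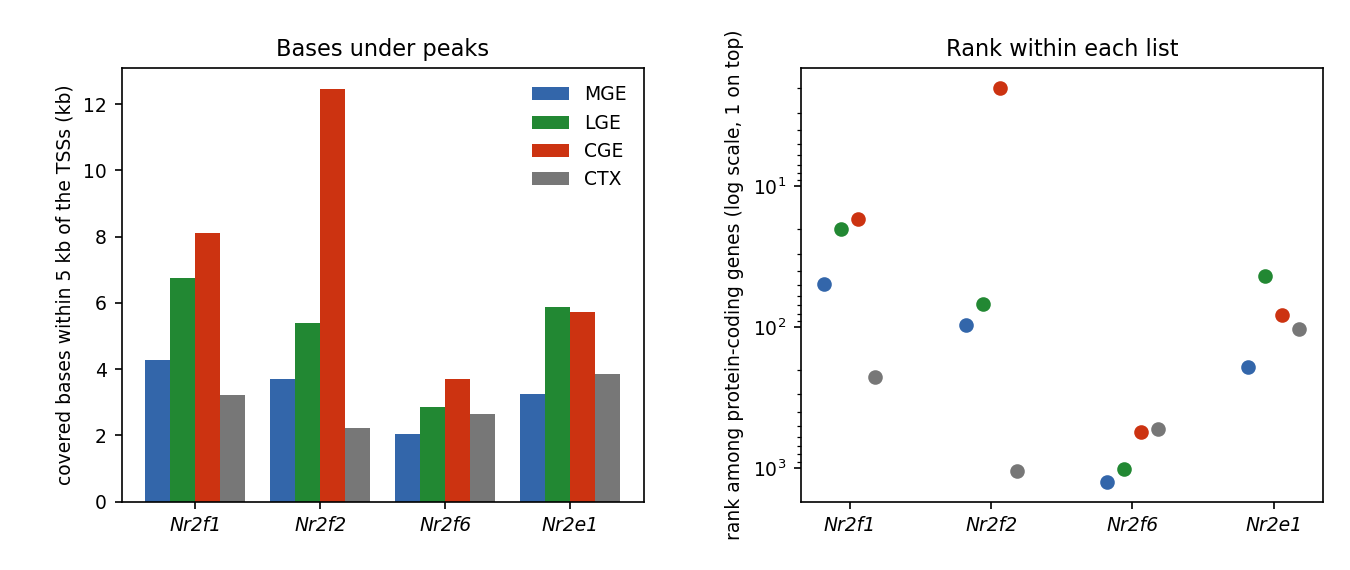
Left, covered bases within 5 kb of the TSSs (kb) for each receptor gene, a bar per region. Right, the rank of the gene by covered bases among protein-coding genes of the same list, on a log axis with rank 1 at the top; Nr2f2 runs from rank 2 in CGE to rank 1053 in CTX, whereas Nr2e1 stays between 43 and 193.

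Each gene was then read TSS by TSS. The annotation (GENCODE M21) gives 6 TSSs for Nr2f1, 6 for Nr2f2, 6 for Nr2f6 and 4 for Nr2e1, 22 in all, and all 4 genes are on the minus strand. In CGE 16 of the 22 TSSs lay inside a peak, in LGE 15, in MGE 11 and in CTX 6, against 47.2%, 46.3%, 43.9% and 43.9% of TSSs of protein-coding genes. The 6 TSSs marked in CTX were 5 of Nr2f6 and 1 of Nr2e1. None of the 12 TSSs of Nr2f1 and Nr2f2 lay inside a peak in CTX, although peaks were nearby. Counted by lists, 6 TSSs were inside a peak in all 4 (41.6% of TSSs of protein-coding genes), 5 in 3, 3 in 2, 3 in 1 and 5 in none (51.5%). The 5′ ends of Nr2f6 and Nr2e1 were inside a peak in all 4 lists and that of Nr2f1 in LGE, against 49.5%, 51.8%, 53% and 49.4% of gene 5′ ends in MGE, LGE, CGE and CTX. The 10-kb window of a TSS was most covered in CGE for 20 of the 22, in LGE for 1 and in CTX for 1, against 73.2%, 15.3% and 5.14% of TSSs of protein-coding genes; TSSs of 1 gene share most of their windows and do not count as independent.

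**Figure D3:**
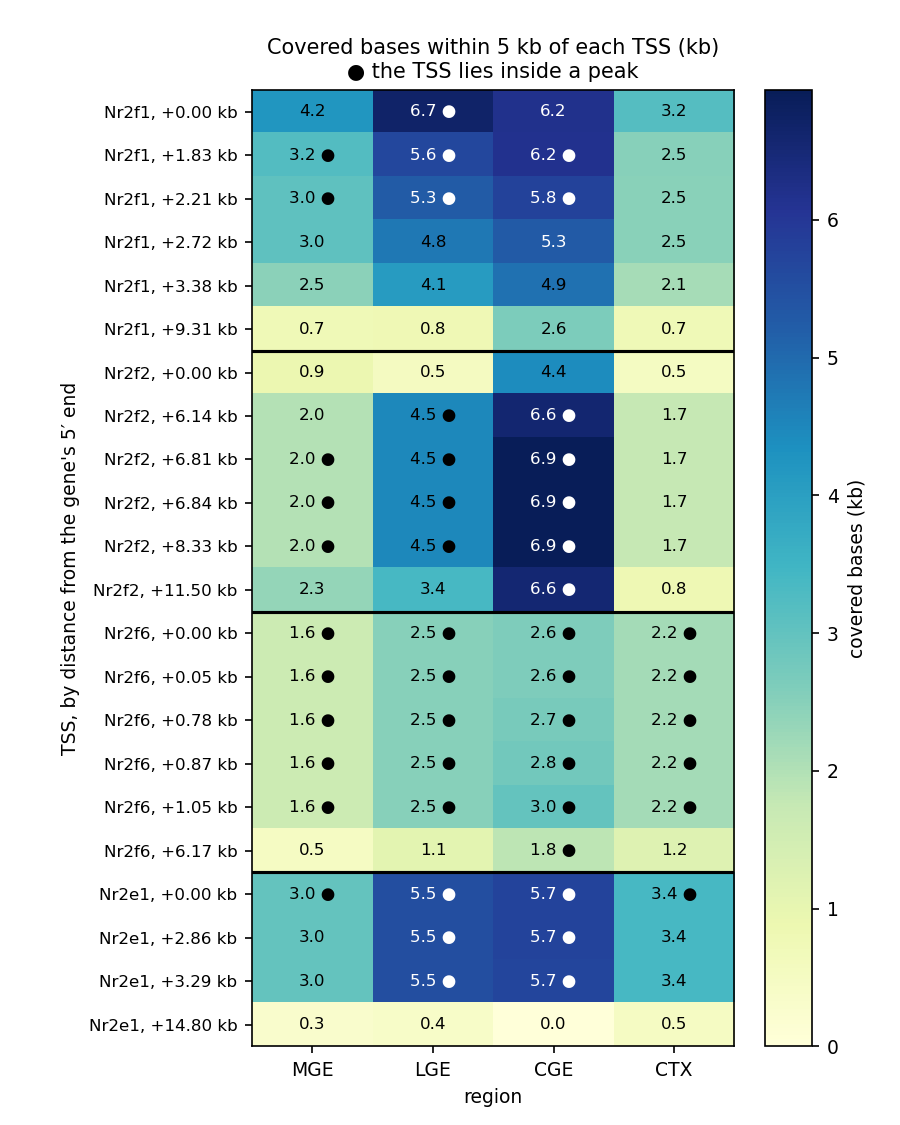
Covered bases (kb, number and colour) within 5 kb of each of the 22 TSSs (rows, named by gene and distance from the gene's 5′ end in kb) in each region (columns), with a dot where the TSS itself lies inside a peak. Dots fill all 4 columns for 5 TSSs of Nr2f6 and 1 of Nr2e1, and the CTX column has none for Nr2f1 and Nr2f2.

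Nr2f1 (ENSMUSG00000069171, chr13:78188973-78199757) carried its H3K4me3 in 3 blocks, around a stretch near its start that no list marked. The first block lay upstream of the gene, apart from 315 bases in LGE that fell in its first exon and a separate peak of 223 bp in CTX within the gene's exonic sequence. In MGE it was broken into 3 peaks of 591, 599 and 1213 bp, and in CTX into 3 peaks of 626, 359 and 749 bp at matching places. In LGE the same stretch was a single peak of 4598 bp (chr13:78199443-78204040), the 23rd widest of that list, and in CGE a single peak of 4008 bp (chr13:78200227-78204234), the 99th widest. Joining peaks less than 1 kb apart raised Nr2f1 from 4263 to 5643 covered bases in MGE and from 3234 to 4410 in CTX, and left LGE and CGE as they were. The order of the 4 regions stayed the same at Nr2f1. At Nr2f2 joining raised MGE from 3700 to 5723 bases, above LGE at 5401.

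The second Nr2f1 block lay inside the gene, over exon and intron, and reached from 3775 to 6283 bp from the 5′ end in CGE. Peak width there was 2509 bp in CGE, against 1201 bp in LGE, 1044 in MGE and 1073 in CTX. The CGE peak (chr13:78193474-78195982) had a −log10 q of 261, higher than 88.4% of peaks in that list, and a fold enrichment of 4.16. Of the 13 peaks of the 4 genes in CGE it stood highest in its list by −log10 q, and the next, at Nr2f2, stood at the 58.9th percentile. No annotated TSS of Nr2f1 lies in that block, and the nearest, 3384 bp from the 5′ end, was 391 to 629 bp from a peak in every list. CGE added peaks of 396 and 268 bp near the 3′ end of the gene, and the windows held 2166 bases marked in CGE alone.

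The third block, between the other two, measured 816 bp in MGE, 954 in LGE and 944 in CGE, and held 2 TSSs (1827 and 2213 bp from the 5′ end) in these 3 lists. In CTX it was 204 bp and held none. From this block to the first, 1048 bp (chr13:78198367-78199414) had no peak in any list, and this stretch holds the RefSeq promoter printed above. It contained 134 CpGs at 76.9% GC, or 12.8 CpGs per 100 bp, against 0 to 10.3 in the 19 peaks at Nr2f1. Of the 7071 promoters in the table with at least as many CpGs as that of Nr2f1, 4.71% had no peak in any list. The part of base composition in the gap was not tested. The annotated 5′ end of Nr2f1 (78199757), just beyond the gap, was inside a peak in LGE alone, and lay 120 bp from a peak in CTX, 441 bp in MGE and 470 bp in CGE. Of the 6 TSSs, 3 were inside no peak in any list, and CTX marked none.

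The antisense gene A830082K12Rik overlaps this locus, with 7 annotated TSSs within 5 kb, the nearest 19 bp from an Nr2f1 TSS. All 7 were inside a peak in LGE, 5 in CGE, 3 in MGE and none in CTX. The peak lists carry no strand, so marks of the pair cannot be told apart here. Over the 19315 bases of the Nr2f1 windows, 8947 were marked in some list and 31.2% of these in all 4. The median of this share was 62.5% over the 13463 genes with a peak in every list, and 1198 genes were lower than Nr2f1.

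Nr2f2 (ENSMUSG00000030551, chr7:70351944-70366735) had its annotated 5′ end outside the peaks of all 4 lists. A stretch of 1122 bp around it (chr7:70366505-70367626) was unmarked throughout, with 10 CpGs at 40.6% GC. No list marking the 5′ end was the state of 14.2% of genes that had a peak nearby in all 4 lists. Of the 7656 promoters with at most as many CpGs as the Nr2f2 entry, 97.98% had no peak in any list, against 55.9% of all promoters, so an unmarked entry of so few CpGs is the usual case. The distance from the 5′ end to the nearest peak was 231 bp in CGE, 2186 in MGE, 4477 in LGE and 4497 in CTX. The marked TSSs were the 5 internal ones. In CGE 5 of them were inside a peak, in LGE 4, in MGE 3 and in CTX none, and the one farthest downstream, 11498 bp from the 5′ end, was marked in CGE alone.

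Sharing of bases was lowest at Nr2f2 of the 4 genes. Of 13155 bases marked in some list, 9.94% were marked in all 4 and 6665 in CGE alone, and 249 of 13463 genes had a lower share. By contrast no base was marked in MGE alone or CTX alone. The CGE peak of 6944 bp (chr7:70354910-70361853), 2nd widest of its list, had a fold enrichment of 2.30, at the 1.63rd percentile of that list. In CTX the 1411-bp peak (chr7:70360828-70362238) was intronic and held 170 CpGs, against 299 in the 6944-bp CGE peak. The noncoding gene B130024G19Rik starts 1576 bp from the Nr2f2 5′ end on the other strand, and neither of its TSSs was inside a peak in any list.

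The marks at Nr2f2 went on beyond the windows in CGE. Between 5 and 100 kb from its TSSs, CGE had 8 peaks over 10424 bases, MGE 4 over 1513, LGE 2 over 591 and CTX 1 over 232. The widest in CGE measured 3268 bp (chr7:70334901-70338168). At Nr2f1 the same flanks held 6 peaks over 6402 bases in CGE, 6 over 3222 in MGE, 4 over 3957 in LGE and 3 over 2193 in CTX. The flanks of Nr2f6 and Nr2e1 held 6 to 8 peaks in every list. In CGE these covered 9590 bases at Nr2f6 and 8987 at Nr2e1, close to the 10424 at Nr2f2. The lowest were 5849 at Nr2f6 and 4460 at Nr2e1, both in MGE. No share over all genes is given for the flanks. Some of these peaks lay near other genes. Of the CGE peaks in the flanks, 5 of 8 at Nr2f2, 4 of 6 at Nr2f1, 1 of 6 at Nr2f6 and 4 of 7 at Nr2e1 were over 2 kb from any annotated TSS.

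**Figure D4:**
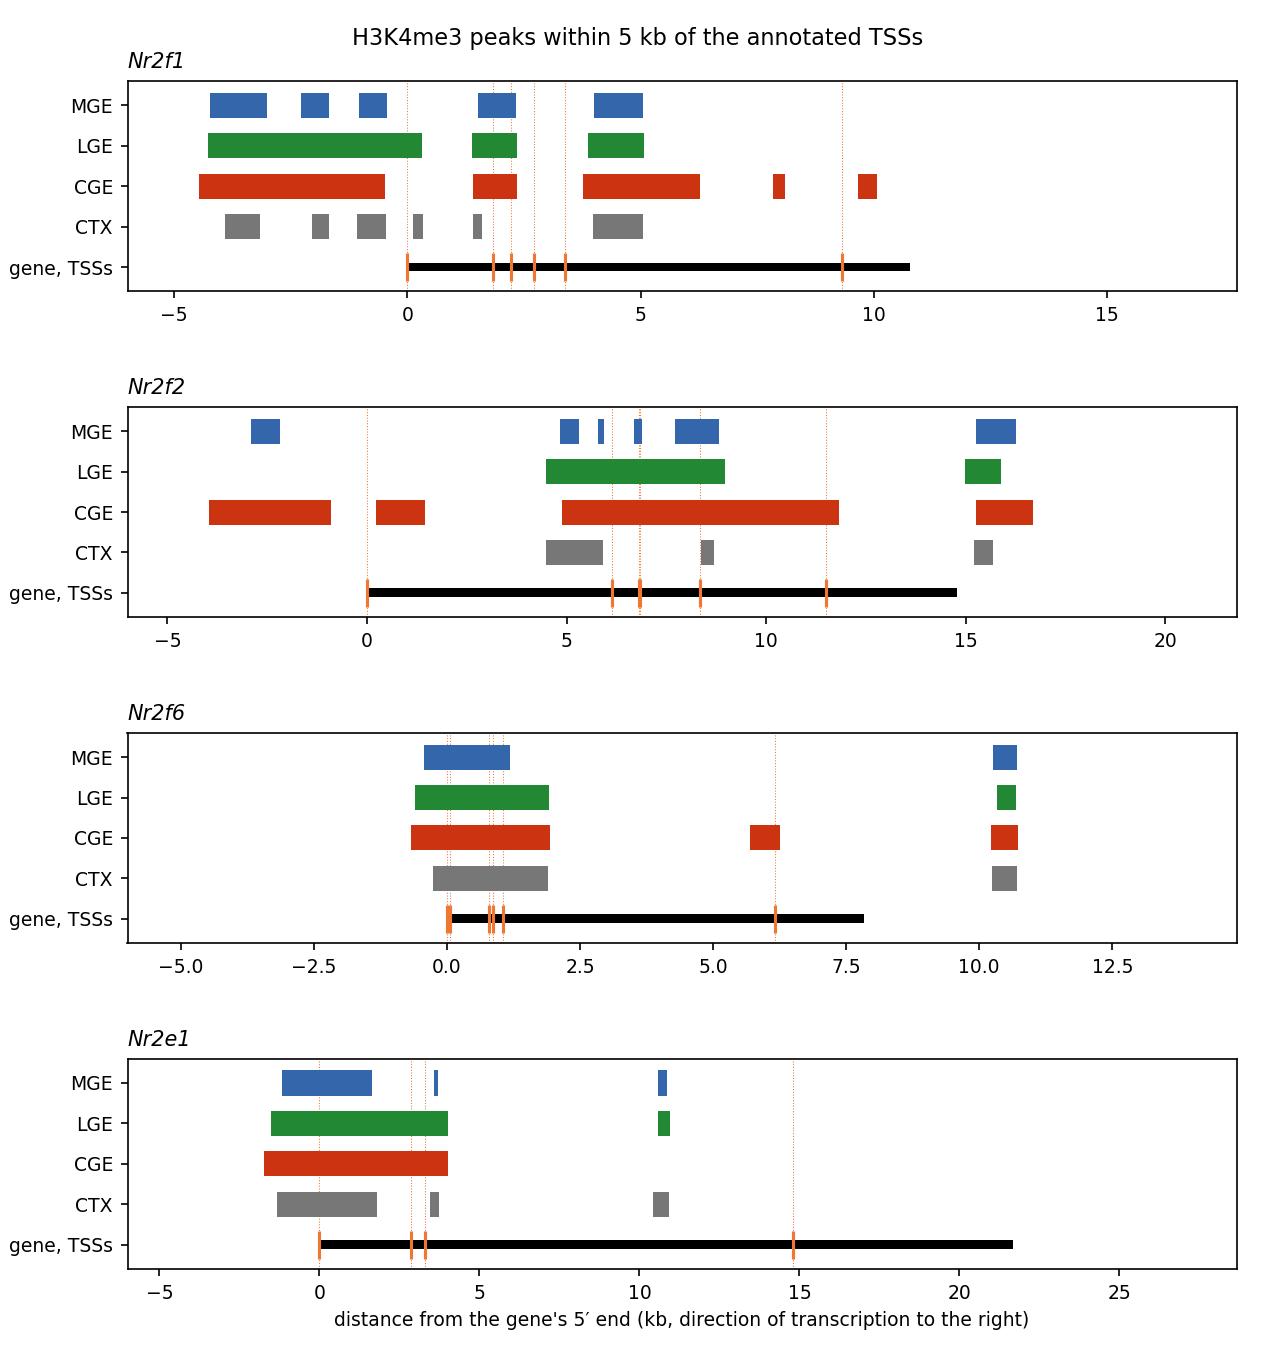
Peaks (bars) of each region within 5 kb of the TSSs of each receptor gene, against the distance from the gene's 5′ end (kb, transcription to the right), with the gene as a black bar and its TSSs as orange ticks. The start of Nr2f1 lies at the edge of an unmarked stretch, the start of Nr2f2 outside all peaks, and the starts of Nr2f6 and Nr2e1 inside a peak in all 4 regions.

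Nr2f6 (ENSMUSG00000002393, chr8:71374123-71381960) had the plainest promoter mark of the 4. A single peak over the 5′ end measured 1608, 2520, 2621 and 2157 bp in MGE, LGE, CGE and CTX, and held the same 5 of its 6 TSSs in every list. Its width percentile within the list was 94.4, 95.7, 95.4 and 98.0, so the peak was relatively widest in CTX. The sixth TSS, 6170 bp downstream, was inside a peak of 561 bp in CGE alone (chr8:71375701-71376261), which was exonic throughout and had a fold of 2.03 and a −log10 q of 7.68. Every base marked in MGE, LGE or CTX was also marked in CGE, and 693 bases were marked in CGE alone. The share of marked bases found in all 4 lists was 48.5%, below the median of 62.5% over genes with a peak in every list. Of these 13463 genes, 3279 were lower than Nr2f6. At Nr2e1 the share was 47.4%, also below the median.

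The remaining peak counted at Nr2f6 belonged to the start of a neighbour. It measured 350 to 507 bp, lay over 10 kb from the Nr2f6 5′ end and held 3 of the 4 TSSs of Ocel1, on the other strand. In MGE, LGE and CTX it had a higher fold (5.87, 4.57 and 7.04) than the peak at the Nr2f6 start (3.39, 4.02 and 3.71). In CGE the order turned, at 3.73 against 3.90.

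Nr2e1 (ENSMUSG00000019803, chr10:42561963-42583632) had a broad domain in all 4 regions. The peak over its 5′ end measured 5725 bp in CGE and 5518 in LGE, where it was the 11th and 7th widest of the list. It measured 3123 bp in CTX (39th) and 2837 in MGE (59th). In MGE and CTX no peak of the other 3 genes ranked as high. In LGE and CGE the peak ran past the first 4 kb of the gene and held 3 of the 4 TSSs; in MGE and CTX it ended 1654 and 1808 bp into the gene and held 1. A peak of 127 bp in MGE and 266 bp in CTX lay where the far end of the LGE and CGE domain fell. The far edges in LGE and CGE lay almost together, 4013 and 4002 bp from the 5′ end.

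Another Nr2e1 mark, between 10440 and 10959 bp into the gene, was not called in CGE. It measured 278 bp in MGE, 369 in LGE and 474 in CTX, with −log10 q of 1.84, 2.02 and 1.63. The TSS 14804 bp from the 5′ end had no other peak within 5 kb, so its window had 0 covered bases in CGE. Requiring a −log10 q of at least 2 removed the MGE and CTX peaks and kept that of LGE.

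The domain at the Nr2e1 start is shared with Ostm1, a gene needed for osteoclast and lysosome function that runs the other way. The 3 Ostm1 TSSs within 5 kb start 190 to 206 bp from that of Nr2e1, so they fall within the Nr2e1 promoter printed above. All 3 were inside the same peak in all 4 lists. The mark at the start cannot be assigned to one of the pair. Upstream of the Nr2e1 5′ end the peak covered 1182 bases (MGE), 1504 (LGE), 1722 (CGE) and 1314 (CTX), and in the gene's own direction 1781, 4013, 4002 and 2074 bases were covered within 5 kb, so most of the gain of LGE and CGE was on the Nr2e1 side.

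The broadest peaks of LGE and CGE at these genes had low fold enrichment for their lists. In LGE and CGE the widest peaks of Nr2f1, Nr2f2 and Nr2e1 stood at width percentiles of 99.4 to 99.99 within their lists, but their folds of 2.27 to 2.70 stood at percentiles of 1.06 to 3.51. The Nr2f6 start peak, of ordinary width by comparison, had folds of 4.02 and 3.90. Width and fold did not run against each other throughout. In MGE the widest peak of Nr2f2, 1117 bp, had a fold of 2.63, while that of Nr2e1, 2837 bp, had 3.40 and that of Nr2f6, 1608 bp, 3.39. Within Nr2f1 in CGE, the narrower peaks of 268, 396 and 944 bp had folds of 1.31 to 1.61, below both wider ones. Peaks were also unusually numerous at Nr2f1, with 6 in CTX, 5 in MGE, 3 in LGE and 5 in CGE against a median of 1 per gene in each list. Only 0.111% of genes with a peak in every list had as many as Nr2f1 in CGE, and 0.149% as many in CTX. Nr2f2 had 6 in MGE, as many as 0.223% of genes, 2 in LGE, 4 in CGE and 3 in CTX. Nr2f6 had 2, 2, 3 and 2, and Nr2e1 3, 2, 1 and 3. For the counts without a share above, the share of genes with at least as many ran from 0.542% (Nr2f1 in MGE) to 100% (Nr2e1 in CGE). It was 17% for Nr2f2 in LGE and 25.6% for Nr2f6 in MGE. Joining peaks less than 1 kb apart left 3 at Nr2f2 in MGE and, at Nr2f1, 3 in MGE and 4 in CTX. The CGE counts of both genes stayed as they were.

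CpG density of marked bases followed how widely they were shared, in each of the 4 genes. At Nr2f2 it was 6.96 CpGs per 100 bp in bases marked in all 4 lists, 4.20 in bases marked in 1 to 3 and 1.07 in unmarked bases of the windows. The same 3 values were 5.98, 3.01 and 2.12 at Nr2f1, 13.03, 8.36 and 1.49 at Nr2f6, and 6.48, 3.86 and 1.33 at Nr2e1. The densest unmarked bases were thus those of Nr2f1, which include the gap.

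Among 45 other nuclear receptor genes, 39 had a peak in some list, as did 14900 of 21951 protein-coding genes. A peak in all 4 lists was found at 36 (61.3% of protein-coding genes), and 6 had a peak in none. Of the 39, 21 were most covered in CGE, 13 in LGE, 4 in CTX and 1 in MGE. Over all genes with a peak in any list the shares were 72.7% for CGE and 16.3% for LGE, and none is given for CTX or MGE. The median ratio of CGE to CTX of these receptors was 1.33 over the 36 covered in both, close to that of all genes. In CGE no other receptor had more covered bases than Nr2f2 or Nr2f1, 1 had more than Nr2e1 and 6 more than Nr2f6. Only Esrrg, an oestrogen-related orphan receptor, exceeded Nr2f2 in CGE over CTX, at 16.7 (3696 against 221 bases), and 5 exceeded Nr2f1. Esrrg, Nr2c1 and Nr2c2 were named after their values were seen. The most covered of the others were Rara, a retinoic acid receptor (3495, 6959, 7761 and 4186 bases in MGE, LGE, CGE and CTX), Rora (2915, 4158, 4245 and 4284) and Nr4a2 (3486, 3943, 3842 and 3769). Hnf4g had a peak in CGE alone (464 bases), and Nr2e3, the closest relative of Nr2e1 and known from photoreceptors, in MGE alone (134 bases). Nr2c1 and Nr2c2, the testicular receptors of the same subfamily, had 843 to 1325 and 1639 to 2173 bases over the 4 lists, with CGE to CTX ratios of 1.57 and 1.32.

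**Figure D5:**
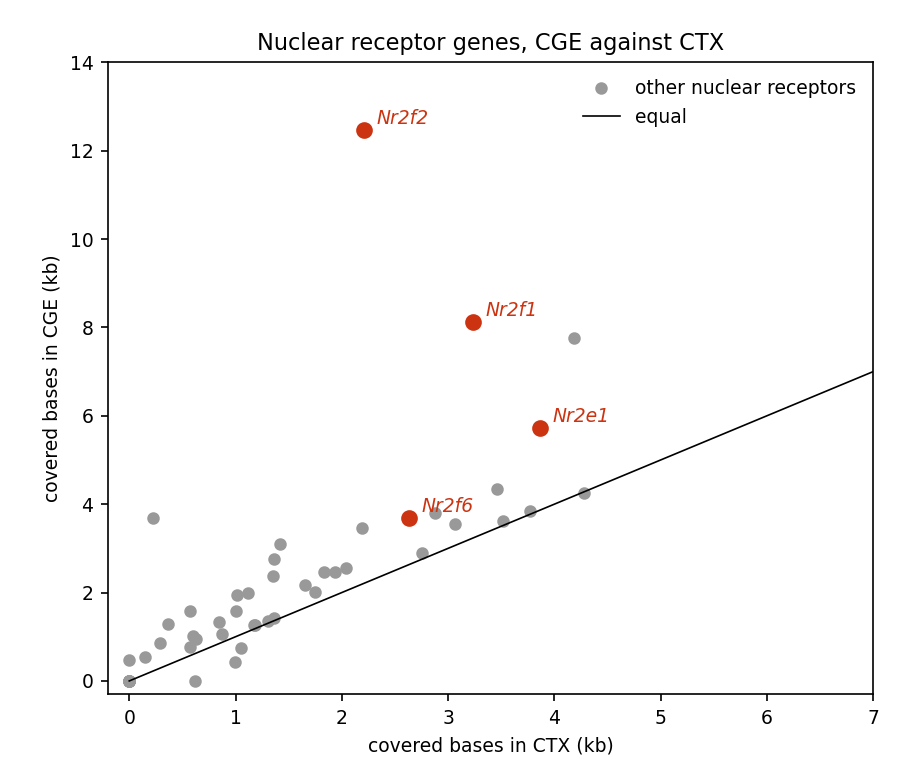
Covered bases in CGE (vertical, kb) against CTX (horizontal, kb) for the 4 receptor genes (red) and 45 other nuclear receptor genes (grey), with the line of equal values. Nr2f2 and Nr2f1 stand highest, at 12460 and 8125 bases in CGE, while Nr2f6 (3689 and 2631 bases) lies among the other receptors.

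All 12 corepressors and cofactors of these receptors had a peak in all 4 lists, where 61.3% of protein-coding genes did, and their median CGE to CTX ratio was 1.47, against 1.36 over all genes. The most covered of them were Bcl11a (Ctip1, a partner of the COUP-TFs), with 3096, 4776, 6075 and 4223 bases in MGE, LGE, CGE and CTX, Rere (an atrophin) with 2768, 4196, 4865 and 2808, and Atn1 (atrophin 1, a corepressor of Tlx) with 2699, 4614, 4366 and 2063. Of 7 genes tied to Tlx or to proliferation, 6 had a peak in all 4 lists, and their median ratio was 1.00. Gfap, which Tlx represses in neural stem cells, had 527 bases in MGE, 502 in CTX and no peak in LGE or CGE. Ccnd1 and Wnt7a were among the 3 most covered of that list, at 2249 to 2515 and 2369 to 2427 bases.

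The eminence and cortical factors gave the range in which Nr2f1 and Nr2f2 fell. Among 10 factors of the caudal and lateral eminences, 8 were most covered in CGE, against 72.7% of genes with a peak in any list. A peak in all 4 lists was found at 8 of the 10, against 61.3% of protein-coding genes. The median CGE to CTX ratio of these 8 was 3.35, against 1.36 over all genes. Sp9 and Gsx1 had no peak in CTX. Dlx6, Dlx1 and Sp8 were the most covered, with 6877, 5554 and 3594 bases in CGE against 408, 1307 and 3347 in CTX. The 7 cortical patterning factors had peaks in all 4 lists and a median ratio of 1.43. Among the 3 most covered of these, Lhx2 and Pax6 had 9024 and 6739 bases in CGE, against 8277 and 5534 in CTX and 3718 and 1062 in MGE. The ratio of Nr2f2 was above the median of the eminence factors and that of Nr2f1 lay between the medians of both lists.

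The genes most like each receptor were sought by the shares of its covered bases over the 4 lists, among genes with at least 50% of its summed covered bases. The distance was Euclidean, and 4 values per gene make it a coarse measure. For Nr2f1 they were Dnajc6, Fgf14 and Anks1b (distances of 0.012 to 0.022, 728 genes compared). For Nr2f2 they were Cacna2d2, Lhx9 and Zfhx3, all farther away (0.075 to 0.11, 560 genes). Lhx9 had 10083 bases in CGE and 2566 in CTX. For Nr2f6 they were Wdr90, Pde1b and Mcrip2 (0.0052 to 0.011, 5684 genes), and for Nr2e1 Tenm3, Trp53 and Cacna1c (0.0062 to 0.010, 1347 genes).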

How the data were processed

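CUT&Tag reads were aligned by the authors with Bowtie2 to GRCm38/mm10, and blacklisted reads and PCR duplicates (Picard) were removed. Replicates were merged with SAMtools and broad peaks were called with MACS, whose version, threshold and control are not given in the sources used here. For each peak the deposited lists give a score, a fold enrichment (the ratio of merged reads to a background the peak caller estimated), a −log10 p and a −log10 q. The score is close to 10 times the −log10 q and was not used. The read depth behind a peak is not in the lists, so the precision of its edges is unknown.

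Positions are 1-based. Peaks were set against GENCODE M21 TSSs (GRCm38) in Python 3.11.15 with numpy 2.4.6, and figures were drawn with matplotlib 3.10.9. Peak ends lay within the chromosomes of the reference. Covered bases are bases under peaks in the union of the 5 kb windows of a gene's TSSs. Interval arithmetic was tested on simulated data. The alternatives were windows of 2 and 10 kb, stricter or equal-length lists, a common minimum width, joined peaks, other sets of TSSs, and other percentiles and measures. The members, gene lists and tests were chosen with earlier results of these data known. The genes named are the 4 members, genes on the other strand starting within 5 kb of them, and from each list those with a peak in 1 to 3 regions and the 3 most covered. The 3 genes most like each member were also named. Some genes and a sequence that this rule covers are not reported here. Libraries were mapped to regions and replicates by the submitters' names, a further number being read as a repeat run.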

Additional observations from a re-analysis of the deposited data

How the results depend on the processing

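Each region is 1 list of merged replicates, so leaving out a replicate was not possible, edges have no error, and read depth per peak is unknown. No paired analysis was possible because no list of a single replicate was analysed here. Of 101 values recomputed under the alternatives, 88 stayed within 1.5 times the reported one, but some of the 101 could not move. Whether a TSS lies inside a peak does not depend on the window size. LGE set both the equal length and the minimum width, so its list stayed whole in those alternatives. The 88 is therefore not a measure of how firm the results are. Nr2f2 was most covered in CGE in 11 of 12 alternatives, Nr2f6 in 11, Nr2f1 in 9, and Nr2e1 in LGE in 8. Limiting each list to the 17284 peaks of highest fold, which leaves LGE whole, moved most: the members' peaks numbered 2 in MGE, 4 in CGE and 3 in CTX, 0 of 22 TSSs in MGE and 5 in CGE were inside a peak, 1 member (Nr2f6) was most covered in CGE, and 0 had their highest percentile there. It removes the peaks of lowest fold, whatever their width: all peaks of Nr2f2 and Nr2e1 in CGE and CTX were lost, while the widest of Nr2f1 and Nr2f6 in these lists stayed. Windows of 10 kb gave 20 peaks in CGE. With the 5′ end of the gene only, peaks numbered 10 in MGE and 8 in CGE, 2 of 4 TSSs were inside a peak in CTX, and 1 member (Nr2f2) had its highest percentile in CGE, as with TSSs of protein-coding transcripts only (1). Leaving out the Ocel1 peaks and the percentile of the share of windows covered were chosen after seeing the data; each made CGE the highest percentile of Nr2f6 too, giving 3 members, as did joining peaks.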
